A study of Sus scrofa with 8 samples.

Results

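The 33 genes described here encode the contractile apparatus of heart muscle: 6 genes of the thick filament, 10 of the thin filament, titin and the 3 myomesins of the M-band, 11 genes of the Z-disc and 2 myosin assembly factors. They were looked up by gene name among the 30550 genes of the deposited table, and 32 were found that way. MYH6 had no row under its name. The gene listed as LOC100736765, annotated in the table as myosin-6 and lying next to MYH7 on chromosome 7 (Sscrofa11.1, 75677666 to 75704486), was taken for it after the table had been seen, and is called MYH6 below. The RNA came from right ventricular tissue of pigs (Sus scrofa) carrying a heterozygous knockout of PKP2, the gene for the desmosomal protein plakophilin 2, and from wild-type (WT) pigs, with 4 libraries in each group. The knockout group is called PKP2_het. Loss of PKP2 function is a known cause of arrhythmogenic cardiomyopathy, in which heart muscle is replaced by fat and scar. The labels name no strain, age, sex or treatment and do not say how the knockout was made or whether each library is a separate animal, so the p-values here cover only how far these libraries spread, which may be technical. The cell type is labelled as cardiomyocytes while the RNA is described as coming from tissue, and in such bulk samples fewer cells of a type and less RNA per cell cannot be told apart.

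The sarcomere is the repeating contractile unit of striated muscle. Myosin thick filaments pull on actin thin filaments, calcium binding to the troponin complex on the thin filament switches this interaction on, and titin spans from the Z-disc, where thin filaments are anchored, to the M-band, where thick filaments are crosslinked. In the ventricle of a large mammal the slow beta-myosin MYH7 predominates over the fast alpha-myosin MYH6, and cardiac troponin I (TNNI3) replaces the fetal, slow skeletal form (TNNI1) around birth. Variants in many of these genes cause inherited cardiomyopathies, and myofibrils attach at the cell ends to the same intercalated discs that hold the desmosomes.

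The library scale behind the FPKM values was 0.763 times the fragment total in PKP2_het replicate 3 and 0.923 to 1.17 times in the other libraries. The libraries held between 23637697 and 31313628 fragments assigned to genes, and transcripts of the mitochondrial genome took 21.1% to 37.6% of them in 7 libraries and 52.1% in PKP2_het replicate 3. That library also stood apart across all tested genes, with a mean correlation of 0.949 with its own group against at least 0.970 in every other library. PKP2 itself was at 52.9, 62.2, 61.1 and 72.8 FPKM (fragments per gene, divided by its length and by a library scale) in WT replicates 1 to 4, and at 45.4, 40.7, 24.6 and 45.9 FPKM in the PKP2_het replicates. The groups did not overlap (two-sided exact permutation test, p = 0.0286, which is the lower limit with 70 relabellings). Its limma adjusted p over all genes was 0.164.

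Sarcomere genes were among the most abundant transcripts of the tissue. The 33 genes took between 12.9% and 14.5% of all fragments outside the mitochondrial genome in every library, with 13.0% to 14.5% in PKP2_het and 12.9% to 14.3% in WT. On the FPKM scale, which is per length, the highest WT levels were those of TNNC1, the calcium-binding troponin C of slow and cardiac muscle (8539 ± 904 FPKM, SD, n = 4), and of the myosin light chains MYL3 (7658 ± 913 FPKM) and MYL2 (6611 ± 490 FPKM). The skeletal alpha-actin ACTA1 followed at 5399 ± 854 FPKM, then troponin T (TNNT2) at 4567 ± 744 FPKM and MYH7 at 4008 ± 753 FPKM. Within each WT library TNNC1 was above MYL3, MYL3 above MYL2 and MYL2 above ACTA1. ACTA1 was above MYH7 in each, while TNNT2 changed places with ACTA1 or MYH7 in some. The lowest tested genes were MYPN (23.9 ± 3.89 FPKM) and TMOD1 (14.1 ± 2.63 FPKM). LMOD3 and TNNI1 were under 1 FPKM in every WT library and did not pass the minimum of 1 FPKM in 4 of the 8 libraries, so 31 genes were tested. Levels depend on the listed gene length: TNNI3 is listed with 5440 bases and a protein annotation of another gene (DNAAF3), and TNNC1 with 497 bases, so the TNNI3 level is not comparable with the others.

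**Figure D1:**
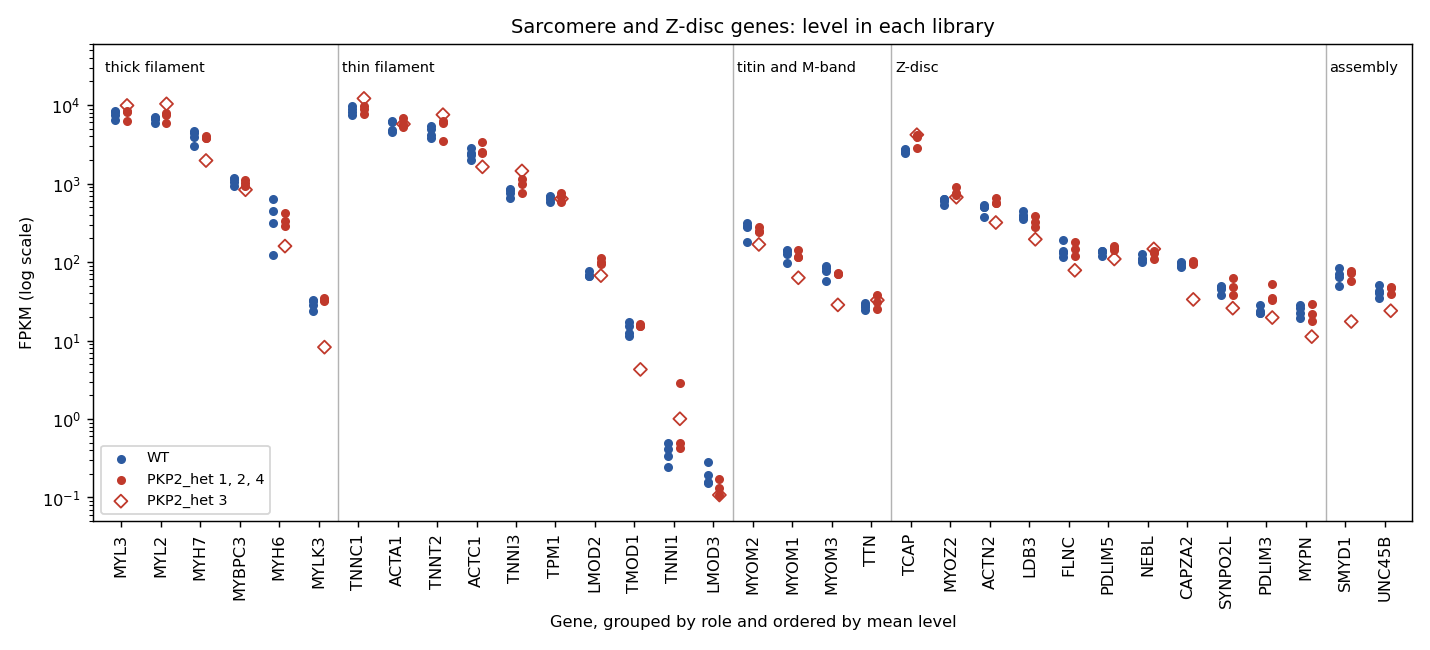
Level of each of the 33 genes in FPKM (log scale), with WT libraries in blue, PKP2_het replicates 1, 2 and 4 as filled red points and replicate 3 as open diamonds, grouped by role. Levels run from 0.106 FPKM for LMOD3 to 12141 FPKM for TNNC1, and the open diamond lies below the other points for 18 of the 31 tested genes.

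No sarcomere or Z-disc gene was called higher or lower in PKP2_het. Of the 31 tested genes 0 passed limma's test at a Benjamini-Hochberg adjusted p of 0.05, where 1.86% of all 10757 tested genes did (1.15% higher and 0.707% lower). Those were 124 higher and 76 lower genes, and 49 and 47 after rescaling the libraries to equal sums. The voom fit on fragments recovered from the FPKM values also called 0 of them. At an unadjusted p under 0.05 there were 3, TCAP, LMOD2 and MYOZ2, all with positive log2 fold changes, against 12.8% of all genes. The log2 fold changes of log2(FPKM + 1) ran from -0.45 for LDB3 to 0.52 for TCAP. Of the 31, 16 were positive, with a median of 0.022, beside 45.7% positive and a median of -0.022 over all genes. Rescaling the libraries to equal sums moved the median of all genes to -0.23 and that of the 31 genes to -0.25, with 6 positive. These sums include transcripts of the mitochondrial genome and were largest in PKP2_het replicate 3. With equal sums outside the mitochondrial genome 98 genes were called higher and 84 lower. The medians were then -0.083 and -0.054, with 13 of the 31 genes positive. After quantile normalisation 8 were positive, with a median of -0.18 beside -0.014 over all genes. Without PKP2_het replicate 3, 23 of 31 were positive, with a median of 0.10 (51.5% and 0.0067 over all genes), and 1 gene, LMOD2, was called higher, where 1.81% of all genes were, and 0 lower, where 1.11% were. In that fit 4 of the 31 genes had an unadjusted p under 0.05 (16.6% of all genes).

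**Figure D2:**
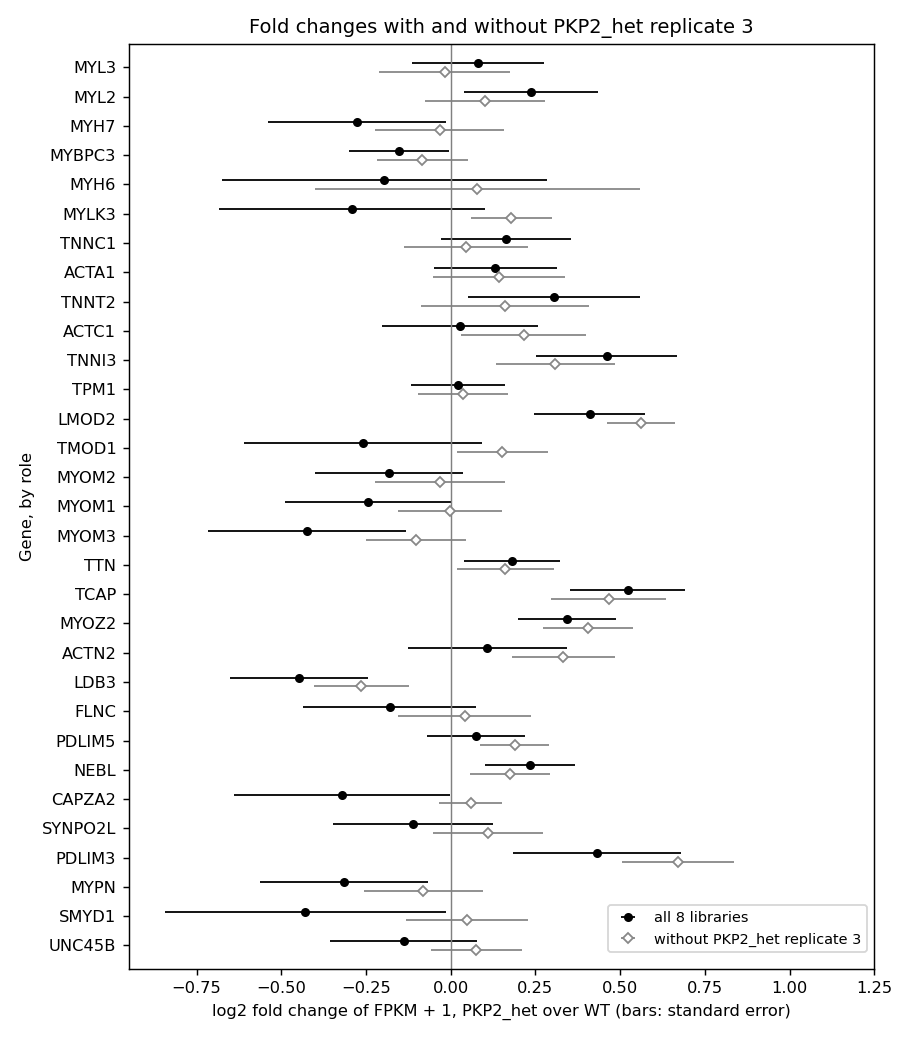
The log2 fold change of FPKM + 1, PKP2_het over WT, for the 31 tested genes ordered by role, with standard errors, from all 8 libraries (black) and without PKP2_het replicate 3 (grey diamonds). Leaving that library out moves most thick filament, M-band and assembly genes from negative values toward 0 and LMOD2 from 0.41 to 0.56.

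Among thick filament genes, MYH7, the beta-myosin heavy chain that generates force in the ventricle, was at 2987, 3952, 4354 and 4739 FPKM in WT replicates 1 to 4. In the PKP2_het replicates it was at 3771, 3772, 1965 and 4048 FPKM. The groups overlapped, and only replicate 3 lay below the WT range. The log2 fold change was -0.28 ± 0.26 (SE; limma adjusted p = 0.693) with all libraries and -0.03 ± 0.19 without that library. It was -0.10 with library weights, -0.55 after rescaling to equal sums and -0.35 with equal sums outside the mitochondrial genome. MYH6, the alpha-myosin heavy chain, was at 451, 313, 123 and 635 FPKM in WT and at 334, 285, 159.5 and 423 FPKM in PKP2_het. It was the most variable of the 31 genes among WT libraries, with a coefficient of variation of 56.9% against 23.6% for the next gene, FLNC, and a median of 11.9%. Its log2 fold change was -0.20 ± 0.48 (limma adjusted p = 0.881), and MYH6 and MYH7 are close in sequence, so fragments may be shared between them.

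The mix of both myosins varied more among WT libraries than between the group means. MYH6 made up 13.1%, 7.35%, 2.75% and 11.8% of the summed MYH6 and MYH7 level in WT replicates 1 to 4, and 8.14%, 7.02%, 7.51% and 9.46% in the PKP2_het replicates. All PKP2_het libraries lay inside the WT range. The log2 ratio of MYH6 to MYH7 was -3.53 ± 0.20 in PKP2_het and -3.61 ± 1.10 in WT (± SD over 4 libraries each), a difference of 0.081 (exact permutation p = 0.943, and 0.943 after adjustment over the 4 isoform ratios examined). WT replicate 3, which had the lowest MYH6 level, had the highest level of MYL7, the atrial regulatory light chain, at 1026 FPKM, while the rest of the WT libraries had 5.07 to 27.2 FPKM. It also had the highest WT level of NPPA, the atrial natriuretic peptide, at 131.5 FPKM against 0.0517 to 1.48 FPKM. Without WT replicate 3 the difference of the ratio turned to -0.43 (exact permutation p adjusted over the 4 ratios = 0.381).

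The other thick filament genes overlapped between groups. MYL2 and MYL3, the regulatory and essential light chains of ventricular myosin, had log2 fold changes of 0.24 ± 0.20 and 0.08 ± 0.19, and both were highest of all 8 libraries in PKP2_het replicate 3, at 10353 and 9879 FPKM. MYBPC3, the cardiac myosin-binding protein that restrains the myosin heads, was at 1073 ± 106 FPKM in WT and at 966 ± 112 FPKM in PKP2_het. MYLK3, the cardiac kinase of the regulatory light chain, was at 32.1, 32.5, 8.23 and 34.9 FPKM in PKP2_het and at 23.9 to 33.1 FPKM in WT. The single low value set its negative log2 fold change of -0.29, which was 0.18 ± 0.12 without replicate 3.

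Of the thin filament genes, LMOD2 came closest to a call. Leiomodin 2 promotes actin filament elongation at the pointed end and sets thin filament length in heart muscle. It lies on chromosome 18 (23803927 to 23815772) and was at 75.7, 66.9, 65.4 and 69.1 FPKM in WT and at 101, 94.4, 67.1 and 113 FPKM in PKP2_het. Replicates 1, 2 and 4 lay above every WT library and replicate 3 lay among them. The log2 fold change was 0.41 ± 0.16 (limma adjusted p = 0.319). Without replicate 3 the PKP2_het mean was 1.48 times the WT mean, and the log2 fold change of 0.56 ± 0.10 passed the test (limma adjusted p = 0.0237). Over the fits leaving out 1 library the adjusted p ran from 0.0237 to 0.593. After rescaling to equal sums the log2 fold change was 0.14 (adjusted p = 0.850). With equal sums outside the mitochondrial genome it was 0.34 (limma adjusted p = 0.425). Another fit weighted the libraries by how far their values lay from the fit. In it the limma adjusted p of LMOD2 was 0.0127, with 2 of the 31 genes called higher beside 3.41% of all genes. These weights come from the same expression values, so this fit is not separate evidence.

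LMOD3, the leiomodin of skeletal muscle, was barely detected. It was at 0.196, 0.154, 0.159 and 0.286 FPKM in WT and at 0.106, 0.131, 0.108 and 0.173 FPKM in PKP2_het, from 6 to 20 fragments a library, and the groups overlapped. As a share of the summed LMOD2 and LMOD3 level it was 0.230% to 0.412% in WT and 0.105% to 0.160% in PKP2_het, which did not overlap. The log2 ratio of LMOD3 to LMOD2 was -8.49 ± 0.39 in WT and -9.51 ± 0.27 in PKP2_het (SD, n = 4), lower by -1.02. By exact permutation p = 0.0286, again the lower limit of 70 relabellings, and 0.114 after adjustment over the 4 ratios. Because the groups did not overlap in this ratio, leaving out 1 library could not turn its sign. The difference then ran from -0.83 to -1.11. With 1 FPKM added to both genes the difference was -0.49 (adjusted over the 4 ratios, exact permutation p = 0.229). The denominator of this ratio is the LMOD2 level given above.

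TNNI3, TNNT2 and TNNC1, like MYL2 and MYL3, were highest in PKP2_het replicate 3. TNNI3, the inhibitory subunit of the cardiac troponin complex, was at 824, 855, 660 and 748 FPKM in WT and at 1154, 747, 1447 and 1000.1 FPKM in PKP2_het. Replicates 1, 3 and 4 exceeded the WT range and replicate 2 lay inside it. The log2 fold change was 0.46 ± 0.21 (limma adjusted p = 0.402). It was 0.31 ± 0.17 without replicate 3, 0.19 after rescaling to equal sums and 0.17 with library weights. With equal sums outside the mitochondrial genome it was 0.38. TNNT2, which ties the complex to tropomyosin, was at 5427, 4929, 3808 and 4103 FPKM in WT and at 5852, 3478, 7536 and 6340 FPKM in PKP2_het, and TNNC1 had a log2 fold change of 0.16 ± 0.19.

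The fetal troponin TNNI1 was under 1 FPKM in 6 of the 8 libraries. Its level was 0.418, 0.244, 0.333 and 0.498 FPKM in WT, from 9 to 18 fragments, and 2.88, 0.422, 1.01 and 0.487 FPKM in PKP2_het, from 98, 15, 29 and 16 fragments. Replicates 1 and 3 were above the WT range and replicates 2 and 4 inside it. The log2 ratio of TNNI1 to TNNI3 was -10.2 ± 1.08 in PKP2_het and -11.1 ± 0.51 in WT (± SD over 4 libraries each), with an exact permutation p of 0.200, or 0.400 adjusted over the 4 ratios. The difference of 0.82 was 0.30 without PKP2_het replicate 1 and 0.096 with 1 FPKM added to both genes. Replicate 1, with the most TNNI1, also had the highest PKP2_het levels of NPPA (373 FPKM), of the atrial light chains MYL7 (243 FPKM) and MYL4 (29.1 FPKM) and of the calcium pump regulator SLN (6.02 FPKM). Their part in the TNNI1 level was not tested.

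**Figure D3:**
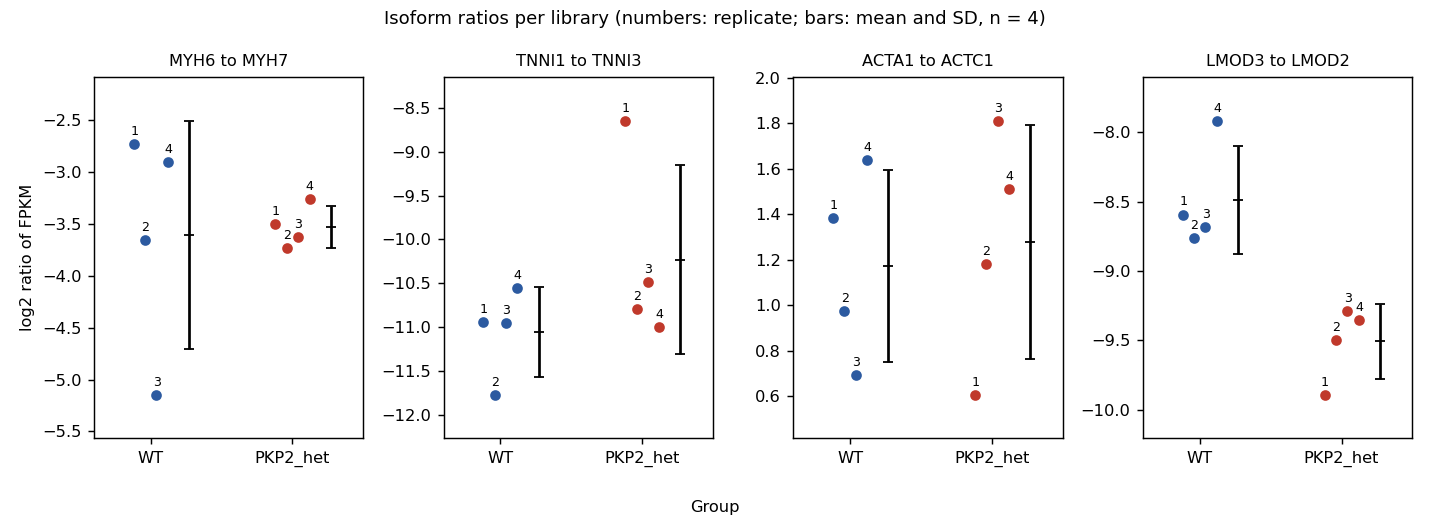
Per-library log2 ratios of FPKM for 4 isoform pairs in WT (blue) and PKP2_het (red), with the replicate number above each point and the mean and SD of 4 libraries beside them. Only LMOD3 to LMOD2 separates the groups, with WT at -8.76 or above and PKP2_het at -9.29 or below, while WT replicate 3 sits apart for MYH6 to MYH7 at -5.15.

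The actins overlapped between groups. ACTA1, the skeletal alpha-actin, was at 6074, 4791, 4541 and 6190 FPKM in WT and at 5198, 5731, 5724 and 6917 FPKM in PKP2_het, for a log2 fold change of 0.13 ± 0.18 (limma adjusted p = 0.779). ACTC1, the cardiac alpha-actin, was at 2332, 2437, 2804 and 1987 FPKM in WT and at 3411, 2524, 1633 and 2426 FPKM in PKP2_het, with 0.03 ± 0.23 (limma adjusted p = 0.972). Both signs turned to negative after rescaling to equal sums (-0.14 and -0.24) and after quantile normalisation. With equal sums outside the mitochondrial genome the log2 fold changes were 0.056 and -0.049. ACTA1 took 61.8% to 75.7% of the summed level of both in WT and 60.4% to 77.8% in PKP2_het, and the difference of the log2 ratio was 0.10 (exact permutation p = 0.771, and 0.943 adjusted over the 4 ratios). Their coding sequences are nearly identical, so this split depends on how shared fragments were counted. TPM1, the alpha-tropomyosin that covers the myosin-binding sites of actin, had a coefficient of variation of 10.9% in PKP2_het (12.9% without replicate 3) and a log2 fold change of 0.02 ± 0.14. TMOD1, which caps the pointed end of the thin filament, was at 15.5, 15.1, 4.28 and 16.1 FPKM in PKP2_het and at 11.4 to 17.2 FPKM in WT.

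At the Z-disc, TCAP and MYOZ2 were higher in every PKP2_het library than in any WT library, without passing the test over all genes. TCAP (chromosome 12, 22651666 to 22652904) encodes telethonin, which ties the ends of neighbouring titin molecules together. It was at 2420, 2551, 2652 and 2760 FPKM in WT and at 4128, 2867, 4187 and 3883 FPKM in PKP2_het. Replicate 2 lay close to the highest WT library and the other PKP2_het libraries well above it. The PKP2_het mean was 1.45 times the WT mean, and the log2 fold change 0.52 ± 0.17 (limma adjusted p = 0.212). It was 0.47 without replicate 3 and 0.65 without replicate 2 (adjusted p = 0.0981), but 0.25 after rescaling to equal sums and 0.15 after quantile normalisation. With equal sums outside the mitochondrial genome it was 0.45 (limma adjusted p = 0.193).

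MYOZ2 (chromosome 8, 104578942 to 104609367) encodes myozenin 2, a Z-disc protein that binds alpha-actinin and calcineurin. It was at 608, 629, 629 and 535 FPKM in WT and at 916, 758, 669 and 719 FPKM in PKP2_het. The lowest PKP2_het library, replicate 3, lay just above the highest WT libraries. The log2 fold change was 0.34 ± 0.15 (limma adjusted p = 0.356), and 0.40 without replicate 3. It was 0.074 after rescaling to equal sums, 0.27 with equal sums outside the mitochondrial genome and 0.14 after quantile normalisation. TCAP and MYOZ2 were the only 2 of the 31 genes whose groups did not overlap toward higher levels, beside 4.86% of all genes. Toward lower levels 0 did so, beside 4.33%.

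**Figure D4:**
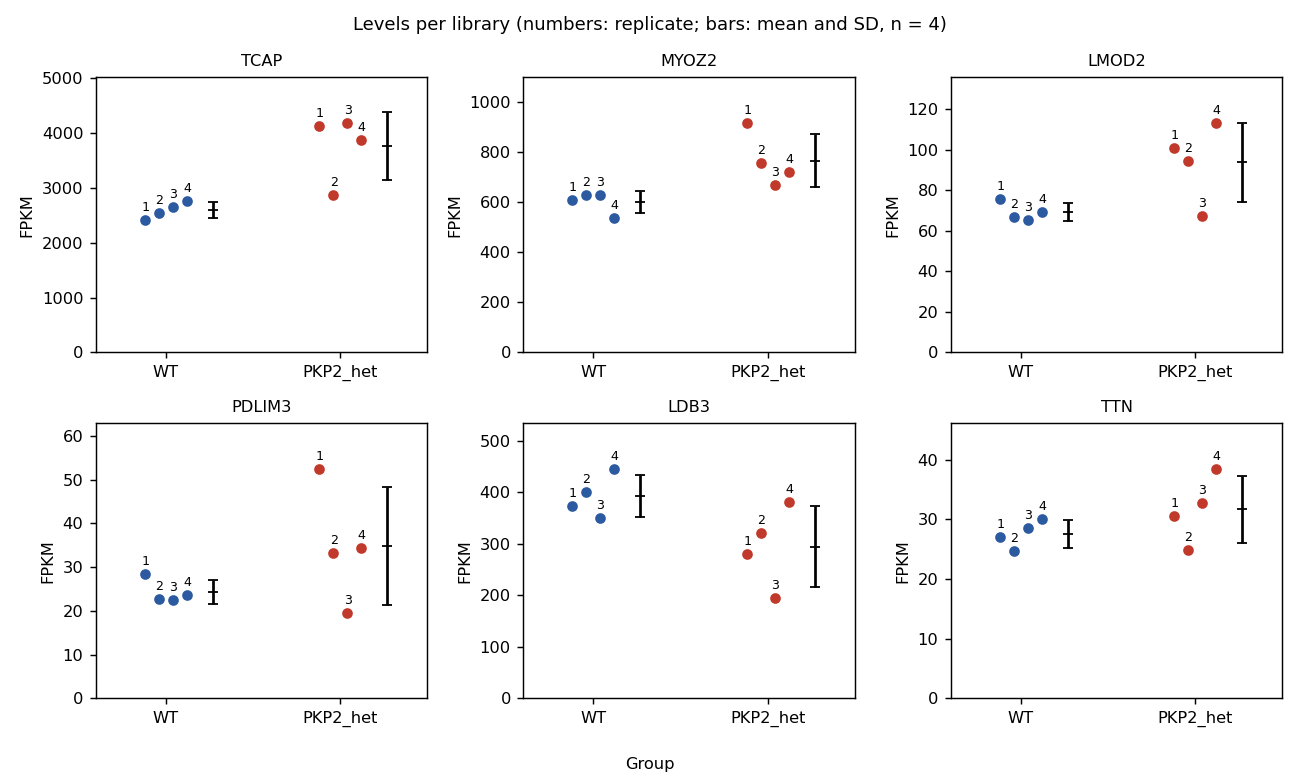
FPKM of 6 genes in the 4 WT (blue) and 4 PKP2_het (red) libraries, each axis starting at 0, with replicate numbers and the mean and SD of each group. TCAP and MYOZ2 show no overlap, while for LMOD2 and PDLIM3 the PKP2_het replicate 3 lies at 67.1 and 19.6 FPKM, inside or under the WT range.

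PDLIM3 and LDB3, which both bind alpha-actinin through PDZ domains, had log2 fold changes of opposite sign that did not pass the test, and are named after their values were seen. PDLIM3 (ALP) was at 28.5, 22.7, 22.4 and 23.7 FPKM in WT and at 52.4, 33.2, 19.6 and 34.4 FPKM in PKP2_het. As for LMOD2, replicates 1, 2 and 4 were above all WT libraries, but here replicate 3 was below them. Its log2 fold change was 0.43 ± 0.25 (limma adjusted p = 0.521), 0.67 ± 0.17 without replicate 3 (0.0741) and 0.21 without replicate 1 (0.680), and it was called with library weights (0.57, adjusted p = 0.0411). After rescaling to equal sums it was 0.18 (adjusted p = 0.837), and with equal sums outside the mitochondrial genome 0.36 (limma adjusted p = 0.533). LDB3 (cypher, or ZASP) was at 372, 400, 350 and 445 FPKM in WT and at 281, 320, 195 and 381 FPKM in PKP2_het, with 3 of 4 PKP2_het libraries below the WT range. The log2 fold change was -0.45 ± 0.20 (limma adjusted p = 0.402), -0.26 without replicate 3, -0.28 with library weights and -0.72 after rescaling to equal sums. With equal sums outside the mitochondrial genome it was -0.52.

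The remaining 7 Z-disc genes overlapped between groups. ACTN2, the sarcomeric alpha-actinin that crosslinks actin at the Z-disc, was at 371 to 530 FPKM in WT and at 560, 568, 319 and 664 FPKM in PKP2_het. Its log2 fold change was 0.11 ± 0.23, and 0.33 ± 0.15 without replicate 3 (limma adjusted p = 0.321). Without that library the groups did not overlap for 6 of the 31 genes, all higher in PKP2_het, beside 8.79% of all genes: TCAP, MYOZ2, LMOD2, PDLIM3, ACTN2 and PDLIM5. Toward lower levels it was 0, beside 6.91%. PDLIM5 (ENH), a scaffold for protein kinases, had a log2 fold change of 0.07, and NEBL (nebulette), which runs along the thin filament at the Z-disc, 0.23 ± 0.13 with all libraries. The actin crosslinker FLNC (filamin C) was at -0.18, the alpha-actinin partner MYPN (myopalladin) at -0.31 and the Z-disc protein SYNPO2L at -0.11. Without replicate 3 these were 0.04, -0.08 and 0.11. CAPZA2, a subunit of the protein that caps the barbed end of actin, was at 87.7 to 102 FPKM in WT and at 102, 95.4, 33.4 and 95.9 FPKM in PKP2_het, so a single library gave its log2 fold change of -0.32 ± 0.32.

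TTN had a positive and the M-band genes had negative log2 fold changes, none of them called. TTN, whose giant protein acts as the elastic spring of the sarcomere, was listed with 104486 bases and was at 27.0, 24.7, 28.5 and 30.1 FPKM in WT and at 30.6, 24.9, 32.7 and 38.4 FPKM in PKP2_het. The groups overlapped and replicate 4 was highest. Its log2 fold change was 0.18 ± 0.14 (limma adjusted p = 0.640), -0.080 after rescaling to equal sums and 0.11 with equal sums outside the mitochondrial genome. The myomesins, which crosslink thick filaments at the M-band, had negative values of -0.24 (MYOM1), -0.18 (MYOM2) and -0.43 (MYOM3), with replicate 3 at 63.0, 168 and 28.4 FPKM below all other libraries. Without it MYOM3 was at -0.10 ± 0.15 and the other two at -0.03 or nearer to 0.

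Both assembly factors followed the same pattern. SMYD1, a muscle methyltransferase needed for myofibril assembly, was at 49.8 to 84.0 FPKM in WT and at 56.9, 72.8, 17.5 and 77.2 FPKM in PKP2_het. It had the largest coefficient of variation of the 31 genes in that group, 48.5%. UNC45B, the chaperone of muscle myosin, was at 34.7 to 50.4 FPKM in WT and at 47.8, 39.2, 23.9 and 46.1 FPKM in PKP2_het. The log2 fold changes were -0.43 ± 0.41 and -0.14 ± 0.22, and 0.05 and 0.07 without replicate 3.

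PKP2_het replicate 3 was low for many sarcomere genes and high for some. It was the lowest of all 8 libraries for 18 of the 31 genes and the highest for 7, beside 36.3% and 23.5% of all tested genes. The share for which it was highest was thus close to that over all genes. Against the mean of the other 3 PKP2_het libraries, on the log2(FPKM + 1) scale, SMYD1 (-1.91), MYLK3 (-1.89), TMOD1 (-1.65), CAPZA2 (-1.52) and MYOM3 (-1.29) were lowest. TNNI3 (0.60), TNNT2 (0.58), MYL2 (0.55), TNNC1 (0.47) and MYL3 (0.39) were highest, followed by NEBL and TCAP. Of the 9 genes listed with under 2000 bases 5 were above the other PKP2_het libraries, and of the 22 longer genes 19 were below. Length did not order them fully, since CAPZA2 (861 bases) and ACTC1 (1559 bases) were low while TTN and NEBL (13500 bases) were not. The Spearman correlation of this deviation with length was -0.36 across the 31 genes and -0.25 across all tested genes, given as a description. WT replicate 1, with the next highest mitochondrial share (37.6%), was the lowest WT library for 16 of the 31 genes, with a correlation of -0.42. PKP2_het replicate 4, next in that share (33.4%), was lowest of its group for 0 of the 31 genes and had a correlation of 0.55, and in the other 5 libraries it ran from -0.16 to 0.38. The part of the mitochondrial share in these values was not tested. Without replicate 3 the median coefficient of variation of the 31 genes in PKP2_het fell from 27.7% to 13.1%, beside 11.9% in WT.

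**Figure D5:**
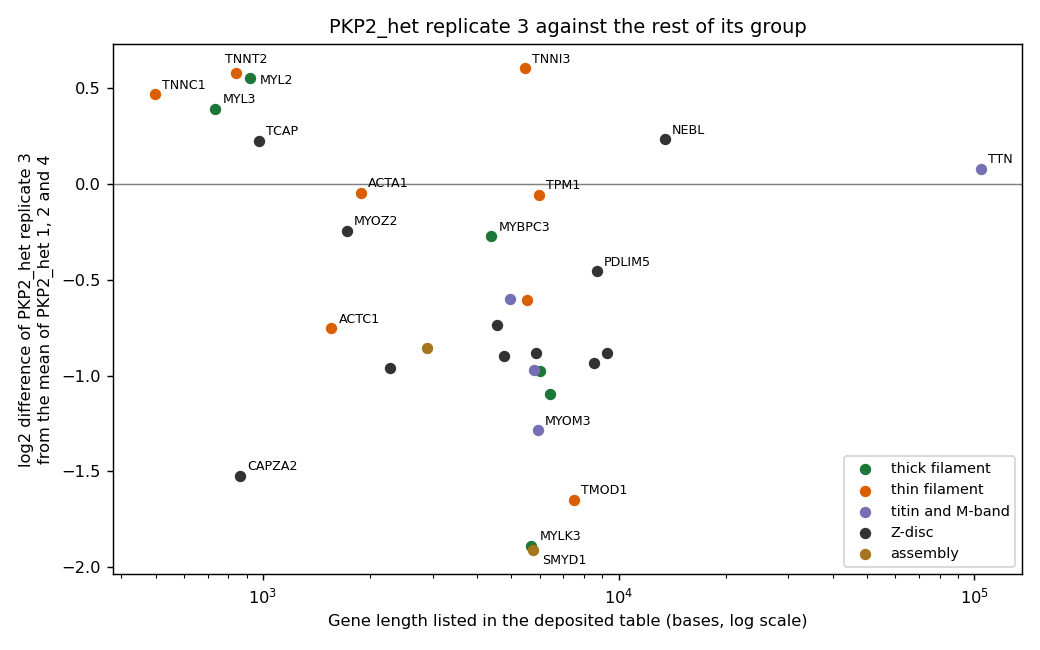
Difference of PKP2_het replicate 3 from the mean of PKP2_het replicates 1, 2 and 4 in log2(FPKM + 1), against the listed gene length in bases (log scale), for the 31 tested genes coloured by role. Troponins C, T and I and both light chains lie above 0, while SMYD1 and MYLK3 lie lowest, near -1.9.

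Related genes outside the 33 showed 1 call. Of 6 tested genes of other myosin chains, MYL1, the essential light chain of fast skeletal muscle, was lower, at 31.0, 16.3, 5.47 and 55.2 FPKM in WT and at 2.07, 1.91, 2.80 and 0.646 FPKM in PKP2_het (log2 fold change -2.95, limma adjusted p = 0.0328). Of 12 tested genes of other tropomyosins, tropomodulins and actin regulators 0 were called and 2 had a limma p under 0.05, TPM3 at -0.35 and TMOD3 at -0.50. Of 29 tested genes of other Z-disc and M-band proteins 0 were called and 3 had a limma p under 0.05. These were the LIM proteins PDLIM4 (0.63) and PDLIM7 (0.46) and the stretch-responsive ANKRD1 (-1.03). Of 19 tested genes of chaperones and protein turnover 0 were called and 2 had a limma p under 0.05, UNC45A (-0.26) and CAPN1 (-0.27). Of 16 tested transcription and splicing regulators 0 were called and 1, the RNA-binding protein RBM24, had a limma p under 0.05 (0.36). Over all tested genes 1.86% were called and 12.8% had a limma p under 0.05. The counts under 0.05 in these lists were near that share, and their genes are named only as those with the smallest p. The medians of these 5 lists ran from -0.11 to 0.073. Without PKP2_het replicate 3 the ubiquitin ligase gene FBXO32 (atrogin-1) was also called higher, where 1.81% of all genes were (log2 fold change 0.66, limma adjusted p = 0.0202). It was at 63.0, 65.2 and 62.0 FPKM in the remaining PKP2_het libraries against 33.6 to 45.9 FPKM in WT, with 13.8 FPKM in the library left out. With library weights FBXO32 was not called. In that fit RBM24 was called higher (0.43, limma adjusted p = 0.0434) and UNC45A lower (-0.31, limma adjusted p = 0.0311), beside 367 higher and 292 lower of all 10757 tested genes.

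Of 15 skeletal muscle markers 4 (MYH4, PVALB, MYOD1 and PAX7) were at 0 in every library, MYH1, MYH2 and MYLPF reached at most 0.168 FPKM, and the summed level of the list, 3676 to 4985 FPKM in PKP2_het and 3370 to 5098 FPKM in WT, was almost wholly that of CKM, which heart muscle also expresses. MYL1, the call above, is on this list. The atrial markers summed to 15.0 to 656 FPKM in PKP2_het and 12.0 to 1169 FPKM in WT, with BMP10 at 0, while the 6 ventricular markers, 3 of them among the 33 genes, summed to 16219.5 to 22333.5 FPKM and 16857 to 19729 FPKM. The 12 cardiomyocyte markers outside the 33 genes summed to 2776 to 4227 FPKM in PKP2_het, lowest in replicate 3, and to 3666 to 3765 FPKM in WT. Of these, MB was matched by annotation only, to a row at 0.132 to 1.23 FPKM that adds almost nothing to the sums. Whether that row is the myoglobin gene was not tested. Endothelial markers had 10 of 10 log2 fold changes below 0, with summed levels of 228 to 464 and 272 to 533 FPKM. Macrophage markers had 8 of 8 tested below 0, with 22.7 to 62.7 and 41.0 to 56.9 FPKM. Over all tested genes 45.7% were above 0. The 10 T and NK cell markers summed to 4.47 to 8.70 FPKM in PKP2_het and 12.5 to 15.9 FPKM in WT, a gap that rested on GNLY, a cytotoxic granule gene. GNLY was called lower, at 0.149 to 0.933 FPKM against 5.84 to 7.29 FPKM (log2 fold change -2.23, limma adjusted p = 0.000139), and the other 9 markers summed to 4.32 to 7.76 and 6.21 to 8.57 FPKM, which overlapped. Fibroblast markers (10) summed to 264 to 564 and 285 to 373 FPKM, with 5 of 9 tested log2 fold changes above 0. The 8 adipocyte markers summed to 360 to 427 and 276 to 455 FPKM, with 4 of 6 tested above 0. The part of other cell types in the sarcomere values was not tested.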

How the data were processed

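The deposited table gives FPKM values of the authors for 8 libraries, 4 PKP2_het and 4 WT, grouped by sample title. Per the submitters' processing notes HISAT2 2.0.5 was the aligner. How fragments were counted and scaled is not given in the sources used here. FPKM times gene length, divided by its smallest positive value in each library, gave whole numbers (within 0.01) for 100% of values. These were taken as fragments, which assumes that the smallest value stands for a single fragment. All 33 genes had the same coordinates in RefSeq's Sscrofa11.1 table.

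The 10757 genes reaching 1 FPKM in 4 or more libraries were tested as log2(FPKM + 1) with limma 3.58.1 in R 4.3.3 (variance trend, two-sided, Benjamini-Hochberg over all genes, threshold 0.05). Isoform ratios had no pseudocount and exact permutation tests. Members and lists were chosen with earlier results of these data known. Named in full are the 4 isoform pairs, TTN and members with p under 0.05, or called without 1 library; of other lists, called genes and those with the smallest p. Of 241 list symbols, 228 matched by name, 6 by annotation and 7 not. Alternatives covered pseudocounts, filters, scalings, weights, robust variances, voom on recovered fragments, a replicate block, a length trend and left-out libraries.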

Additional observations from a re-analysis of the deposited data

Results flagged for a closer look

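Among the 33 genes and 4 isoform ratios, 74 groups of 4 libraries were examined for a library lying far from the other 3 by Dixon's ratio of gap to range, which chance gives in about 1 of 20 groups. The groups are not independent, since the genes share the same libraries and the ratios are built from the same genes. The share over all tested genes is not given here. In 5 of the 74 groups a library lay that far, which is near the chance share, and all 5 were PKP2_het replicate 3. It was at 1965 FPKM for MYH7 whereas the rest of its group had 3771 to 4048 FPKM. For MYLK3 it was at 8.23 against 32.1 to 34.9 FPKM, for TMOD1 at 4.28 against 15.1 to 16.1 FPKM, for MYOM3 at 28.4 against 69.6 to 73.1 FPKM and for CAPZA2 at 33.4 against 95.4 to 102 FPKM.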

How the results depend on the processing

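None of the 33 genes was called lower under any alternative. None was called higher except LMOD2 and PDLIM3 with library weights (2) and LMOD2 without PKP2_het replicate 3. Leaving out 1 library thus gave 0 to 1. Over all genes 124 were called higher and 76 lower. The counts were 51 and 37 with a minimum of 5 FPKM, 49 and 47 with equal sums, 367 and 292 with library weights, and 75 to 195 and 40 to 119 when 1 library was left out. They were 195 and 119 without PKP2_het replicate 3, 77 and 42 without WT replicate 2, and 75 and 40 without WT replicate 4. The log2 difference of PKP2 was -0.95 with equal sums (exact permutation p = 0.0857) and -0.76 with equal sums outside the mitochondrial genome (0.0286). It was -0.51 without PKP2_het replicates 3 and 4 (0.133), and -0.77 to -0.48 without 1 library (0.0571). Both 0.133 and 0.0571 are the smallest p possible with those libraries.

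Signs changed where differences were near 0. With equal sums ACTA1 was at -0.14, ACTC1 at -0.24 and TTN at -0.080, and with equal sums of genes not of the mitochondrial genome ACTC1 was at -0.049. Quantile normalisation gave -0.15 for ACTA1 and -0.29 for ACTC1, and removing a length trend gave -0.024 for ACTC1. Leaving out 1 library gave -0.14 to 0.22 for ACTC1, -0.66 to 0.13 for MYH6, -0.43 to 0.37 for the MYH6 to MYH7 ratio and -0.072 to 0.33 for ACTA1 to ACTC1. Without PKP2_het replicates 3 and 4 these ratios differed by -0.0049 and -0.28. The cause was not tested.

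Same-numbered libraries of the groups had correlated deviations of -0.39 to 0.20 over 4 pairs, and 1 of 4 PKP2_het libraries correlated best with its own number, so the numbers were not taken as pairs. With a replicate block 66 genes were called higher and 39 lower, 0 of them among the 33 genes. PKP2 was at -0.69 (exact permutation p = 0.125, the smallest possible with this block). LMOD3 and TNNI1 rest on few fragments in most libraries.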
